A study of Ictidomys tridecemlineatus with 15 samples.

Results

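The genes of apolipoproteins and of lipoprotein assembly were followed through the hibernation cycle of the 13-lined ground squirrel liver, by the nascent RNA that engaged RNA polymerases produced on them. The set was chosen by name and holds 10 genes, namely Apob, Mttp, Apoa1, Apoa2, Apoc3, Apoe, Apoh, Apom, Lcat and Lipc. All 10 were found among the 6324 transcription units of the count matrix, 6 of them as single-gene units and 4 inside merged units that hold several overlapping genes. No measured value entered the choice by name, although the set was proposed with earlier results of these data known.

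The liver packs triglyceride and cholesterol into very low density lipoprotein (VLDL) around a single apolipoprotein B molecule, and microsomal triglyceride transfer protein, the product of Mttp, loads the lipid onto it as it is made. Apolipoproteins A-I and A-II form the protein scaffold of high density lipoprotein (HDL), and smaller exchangeable apolipoproteins move between particles and steer their lipolysis and their uptake by receptors. Lecithin-cholesterol acyltransferase (Lcat) and hepatic lipase (Lipc) remodel the particles once they are in plasma. A hibernator lives on stored fat in winter, and lipoproteins are one of the routes by which the liver exports lipid.

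GRO-seq was applied to liver nuclei of female squirrels, 1 animal to a library. SA animals were taken in the warm season before hibernation, IBA animals during the warm interval between torpor bouts, Ent animals while cooling into torpor, ET animals early in a bout and LT animals late in a bout. SA, IBA, Ent and ET had 3 libraries each and LT had 2, because a further LT library, replicate 2, was set aside by the authors and has no column of counts. All animals were laboratory housed, came from 1 breeding colony and carried surgically implanted temperature loggers, and no genetic or drug treatment was applied. SA and IBA are called warm here (6 libraries), and ET and LT cold (5 libraries). The nuclear run-on was performed on thawed tissue for 7 min at 1 temperature for every state, so that a count reports polymerases engaged on a gene when the liver was frozen and not their speed in the animal.

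Total counts ran from 3713883 to 8884763 per library. Values are counts per 1000000 counts of the library (CPM) after TMM scaling, a correction for differences in composition between libraries. They are shares of a library, and the total amount of transcription in each state was not measured. In whole liver, fewer cells of a type and less RNA per cell cannot be told apart. Hepatocyte markers had units for 9 of 10 genes, with a summed level of 11830 to 22290 CPM in the warm libraries, 7887 to 9819 CPM in Ent and 2924 to 6606 CPM in the cold libraries. Of these 9 units 8 were lower in the cold libraries by the test described below and none was higher, among them Ttr at a log2 fold change of -2.25 (adjusted p = 2.8e-06 by edgeR). The part of this fall of hepatocyte marker units in the results for the lipoprotein genes was not tested. None of the listed Kupffer cell, stellate cell, lymphocyte or erythroid markers had a unit, so that these cell types were not analysed here. Of 7 endothelial markers 2 had a unit, with a summed level of 132 to 201 CPM in the warm libraries and of 73.8 to 140 CPM in the cold. Of 5 cholangiocyte markers only Sox9 had one, at 16.5 to 41.0 CPM warm and 7.07 to 18.1 CPM cold. These 3 units were also called lower in the cold, Kdr by -0.86 (adjusted p = 0.00094 by edgeR), Pecam1 by -0.68 (0.00909) and Sox9 by -1.33 (0.00046) on the log2 scale.

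Libraries came from 3 collection seasons. ET was collected in a season of its own, so ET and its season cannot be told apart. All IBA libraries came from the third season and both LT libraries from the first, and these states are bridged only by SA and Ent, which have animals of both. In the third-season Ent animal, replicate 3, all 10 units were at their lowest of the 3 Ent libraries. Over all units this library was the lowest of Ent in 39.4%. A shared order was also seen within ET and LT, each collected in 1 season. ET replicate 2 was the lowest of ET in 8 of the 10 units, against 34.8% of all units. LT replicate 3 was the lower of LT in 8, against 48.7% of all units. The part of season in the order of the Ent libraries was not tested.

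The transcription units lay as follows on the HiC_Itri_2 assembly. Apob occupied Itri12 from 60275346 to 60330062 on the minus strand, a unit of 54.7 kb. Mttp lay on Itri15 from 19982308 to 20073866 on the minus strand (91.6 kb), Lipc on Itri5 from 101756645 to 101885784 on the plus strand (129 kb) and Apoh on Itri7 from 12495114 to 12510615 on the minus strand (15.5 kb). The shortest units were Apom, on Itri8 from 35687522 to 35692619 on the plus strand (5.10 kb), and Apoc3, on Itri3 from 99186344 to 99189937 on the plus strand (3.59 kb). The units are annotated genes, extended by the authors to the end of the nascent signal where this lay further downstream, and the counts leave out the first 500 nucleotides after the start, where polymerases pause.

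The merged units hold reads of all the genes in their names, which cannot be divided between them. Apoa2 shared its unit with Nr1i3, the xenobiotic receptor CAR, on Itri11 from 7304076 to 7324772 on the minus strand (20.7 kb). Apoe shared its unit with Tomm40, a mitochondrial import pore gene, and with Apoc1, on Itri16 from 17153400 to 17176575 on the plus strand (23.2 kb). Lcat shared its unit with the transporter gene Slc12a4 and the proteasome gene Psmb10, on Itri16 from 41270483 to 41299120 on the plus strand (28.6 kb). Apoa1 shared a unit with the kinase gene Sik3 on Itri3 from 99184314 to 99435951 on the minus strand, and at 252 kb most of this unit can only be Sik3, since Apoa1 is a short gene. The Apoc3 unit lay inside the span of Apoa1:Sik3 on the opposite strand. The libraries keep the strand of the RNA, but whether strand was used in counting is not given in the sources used here, so the values of Apoc3 and Apoa1:Sik3 may not be fully separate. On the other strand the unit of Bag6 likewise spanned the whole of Apom.

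**Figure D1:**
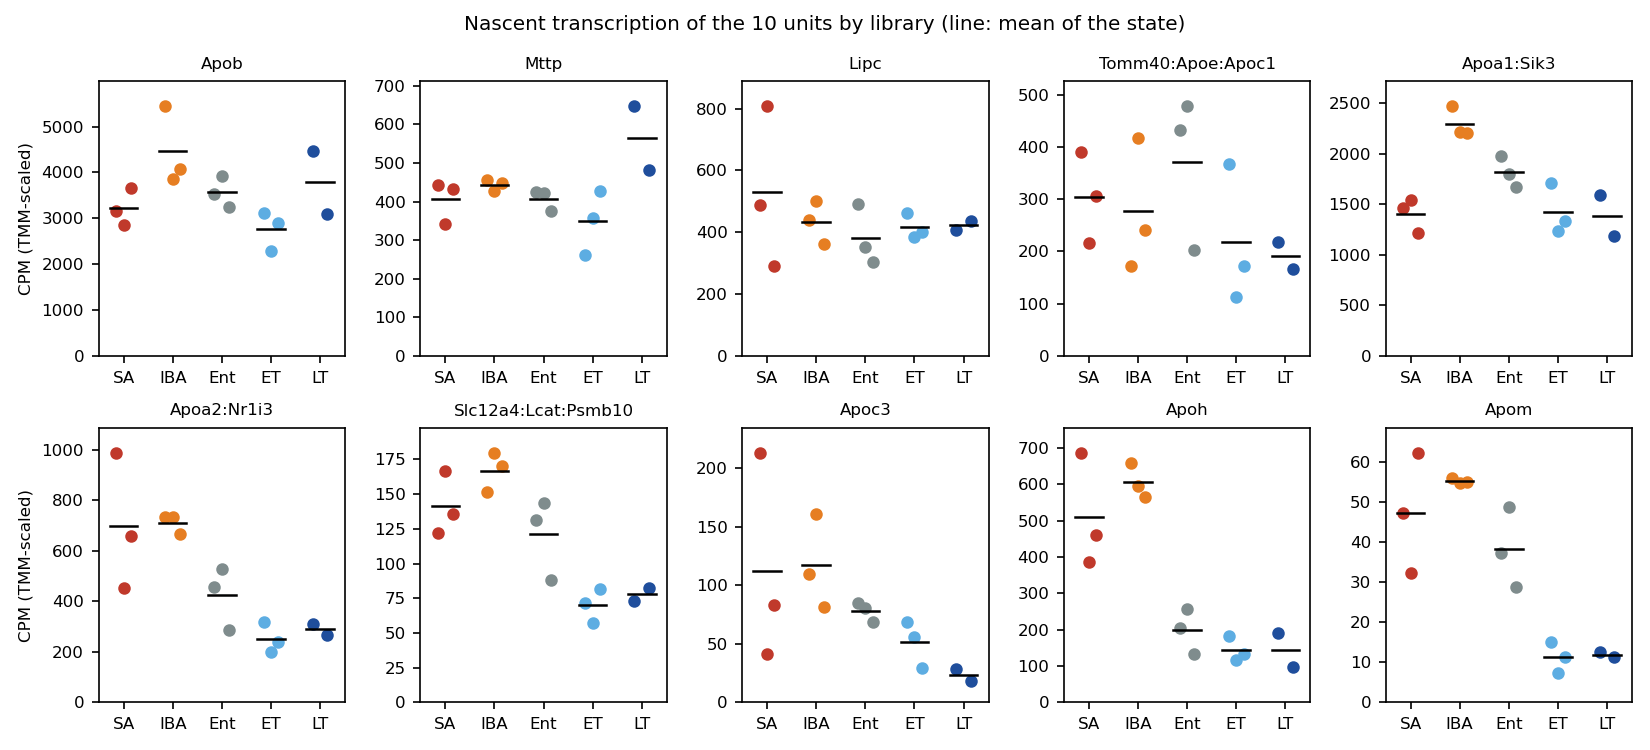
Nascent transcription in CPM (y axis, from 0, a scale of its own in each panel) of the 10 units in each of the 14 libraries, by state (x axis); points are libraries and lines are state means. Apob, Mttp, Lipc and Tomm40:Apoe:Apoc1 overlapped between warm and cold states, whereas the 5 cold libraries of Apoa2:Nr1i3, Slc12a4:Lcat:Psmb10, Apoh and Apom all lay below the 6 warm ones.

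Apob, the gene of the protein core of VLDL, was transcribed at a high level in all 5 states and passed the test in no comparison. Apob had 3155, 2860 and 3671 CPM in SA replicates 1 to 3 and 5439, 3857 and 4082 CPM in IBA. It had 3525, 3930 and 3256 CPM in Ent, 3106, 2282 and 2892 CPM in ET, and 4460 and 3102 CPM in LT. The state means ran from 2760 CPM ± 428 (SD, n = 3) in ET to 4459 CPM ± 856 (SD, n = 3) in IBA, and the LT and IBA libraries overlapped. By mean CPM it was the third most transcribed of all units in IBA and in LT, and it stood between rank 3 and rank 7 in every state. The SA libraries of Apob all lay below the IBA libraries, at a log2 difference of 0.47 ± 0.21 (SE) that did not pass the test (adjusted p = 0.221 by edgeR). Per kilobase of unit it ranked between 6 and 30, with 69.1 CPM per kb ± 17.5 (SD, n = 2) in LT. The log2 fold change from LT to IBA was 0.24 ± 0.24 (SE), with a 95% interval of -0.28 to 0.75 and an adjusted p of 0.426 by edgeR's quasi-likelihood test. Warm and cold libraries of Apob overlapped, at a log2 fold change, cold minus warm, of -0.23 (95% interval -0.58 to 0.11, adjusted p = 0.218 by edgeR).

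Mttp, whose product charges apolipoprotein B with lipid, also did not pass the test in any comparison. It had 444, 343 and 433 CPM in SA, 455, 428 and 449 CPM in IBA, 424, 421 and 375 CPM in Ent, 262, 357 and 428 CPM in ET, and 647 and 481 CPM in LT. The IBA libraries lay close together, at 444 CPM ± 14.5 (SD, n = 3), and both LT libraries lay above every library of the other states. From ET to LT the log2 fold change was 0.69 ± 0.20 (SE), with an unadjusted p of 0.0039 and an adjusted p of 0.218 by edgeR, and so it was not called. Cold and warm libraries overlapped, with a log2 fold change of 0.06 (95% interval -0.23 to 0.35, adjusted p = 0.701 by edgeR). Per kilobase Mttp was transcribed at 4.44 CPM in SA against 59.0 CPM for Apob.

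Apoa1:Sik3 was the second most transcribed unit of the set and the only one called between the warm states. It had 1460, 1541 and 1212 CPM in SA and 2467, 2216 and 2200 CPM in IBA, with no overlap. It was 1.63-fold higher in IBA, a log2 difference of 0.71 ± 0.18 (SE, adjusted p = 0.0371 by edgeR). Of the 10 units, 1 was therefore called higher in IBA than in SA, against 2.37% of all units. This call was not stable, since it was lost in 7 of 24 alternative analyses, among them the fit of SA and IBA alone (adjusted p = 0.0857 by edgeR). The unit then had 1974, 1800 and 1673 CPM in Ent, 1709, 1234 and 1334 CPM in ET, and 1589 and 1181 CPM in LT, and it was 1.66-fold higher in IBA than in LT (adjusted p = 0.00982 by edgeR). As Sik3 supplies most of the length, the values do not show the course of Apoa1 itself.

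Apoa2:Nr1i3 was lower in the cold. It had 987, 451 and 657 CPM in SA, 732, 734 and 667 CPM in IBA, and 456, 529 and 285 CPM in Ent. In ET it had 317, 199 and 238 CPM, and in LT 310 and 269 CPM, so that every cold library lay below every warm one. The fold change from warm to cold was 2.61-fold downwards, a log2 fold change of -1.39 ± 0.22 (SE, adjusted p = 0.00012 by edgeR). Per kilobase it was the third unit of the set in warm livers, at 34.1 CPM per kb ± 8.35 (SD, n = 6), after Apoh, with 36.1 CPM per kb ± 7.48 (SD, n = 6), and Apob, with 70.3 CPM per kb ± 16.5 (SD, n = 6).

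Apoc3 encodes an inhibitor of lipoprotein lipase and of remnant uptake, and its unit was the most variable of the set in summer. It had 213, 41.5 and 82.9 CPM in SA, 109, 161 and 81.6 CPM in IBA, 85.1, 80.3 and 68.6 CPM in Ent, 68.6, 56.0 and 29.5 CPM in ET, and 28.3 and 18.4 CPM in LT. The SA libraries spread over 5.13-fold, and one of them, replicate 2, lay inside the range of the cold ones. The LT libraries nevertheless lay below all others. From LT to IBA Apoc3 was 5.02-fold higher, a log2 fold change of 2.33 ± 0.59 (SE, adjusted p = 0.00602 by edgeR). From ET to LT the log2 fold change of Apoc3 was -1.14 ± 0.57 (SE) and did not pass the test (adjusted p = 0.618 by edgeR).

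Tomm40:Apoe:Apoc1, which holds the gene of the remnant-clearing apolipoprotein E, varied widely between animals of a state and passed the test in no comparison. It had 391, 216 and 306 CPM in SA, 173, 418 and 242 CPM in IBA, 433, 478 and 202 CPM in Ent, 368, 114 and 173 CPM in ET, and 219 and 166 CPM in LT. All 5 states overlapped, and the coefficient of variation in ET was 61.1%. Its log2 fold change from LT to IBA was 0.53 with a 95% interval of -0.56 to 1.63 (adjusted p = 0.402 by edgeR), an interval that leaves room for a change as large as that of Slc12a4:Lcat:Psmb10. Without ET replicate 1, its highest cold library, the log2 fold change of this unit, cold minus warm, was -0.81 and passed the test (adjusted p = 0.0348 by edgeR), against -0.50 (adjusted p = 0.206) with all libraries.

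Apoh encodes beta-2 glycoprotein I, an abundant phospholipid-binding plasma protein, and was the only unit called between IBA and Ent. It had 687, 386 and 462 CPM in SA and 660, 595 and 566 CPM in IBA. In Ent it had 206, 258 and 132 CPM, in ET 184, 116 and 132 CPM, and in LT 192 and 97.7 CPM. No library of the Ent, ET and LT livers reached the lowest of the warm ones. From IBA to Ent it fell 3.05-fold, a log2 fold change of -1.61 ± 0.31 (SE, adjusted p = 0.00625 by edgeR), and 1 of the 10 units was called lower in this step, against 7.34% of all units. From Ent to ET the log2 fold change of Apoh was -0.47 ± 0.30 (SE, adjusted p = 0.266 by edgeR), and ET and LT had nearly the same mean, 144 and 145 CPM.

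Apom encodes the HDL-bound carrier of sphingosine 1-phosphate, and it was called in the step after that of Apoh. It had 47.2, 32.2 and 62.3 CPM in SA, 56.0, 54.8 and 55.1 CPM in IBA, and 37.2, 48.8 and 28.8 CPM in Ent. In ET it had 15.0, 7.46 and 11.3 CPM, and in LT 12.6 and 11.3 CPM. Every cold library lay below every Ent and warm library. From Ent to ET it fell 3.37-fold, a log2 fold change of -1.75 ± 0.29 (SE, adjusted p = 0.00128 by edgeR), whereas from IBA to Ent its log2 fold change was -0.53 ± 0.27 (SE, adjusted p = 0.199 by edgeR). The lowest count behind these values was 38 reads and the highest 524, so that Apom is the least deeply counted of the 10 units.

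Slc12a4:Lcat:Psmb10, which holds the gene of the enzyme that esterifies cholesterol on HDL, had 122, 166 and 136 CPM in SA, 151, 180 and 170 CPM in IBA, and 132, 144 and 88.1 CPM in Ent. In ET it had 71.6, 57.2 and 81.6 CPM, and in LT 73.0 and 82.5 CPM, all below the lowest Ent library. From Ent to ET it fell 1.73-fold, a log2 fold change of -0.79 ± 0.19 (SE, adjusted p = 0.01 by edgeR). With Apom it made up the 2 of 10 units called lower from Ent to ET, a step in which 13.4% of all units were called lower.

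Lipc, the gene of hepatic lipase, passed the test in no comparison. It had 489, 807 and 291 CPM in SA, 439, 501 and 361 CPM in IBA, 492, 351 and 305 CPM in Ent, 464, 384 and 400 CPM in ET, and 408 and 437 CPM in LT. The spread among the SA animals, 2.77-fold, covered all other libraries. The log2 fold change of Lipc from LT to IBA was 0.04 with a 95% interval of -0.67 to 0.75 (adjusted p = 0.933 by edgeR), so that changes smaller than this interval could not have been seen.

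**Figure D2:**
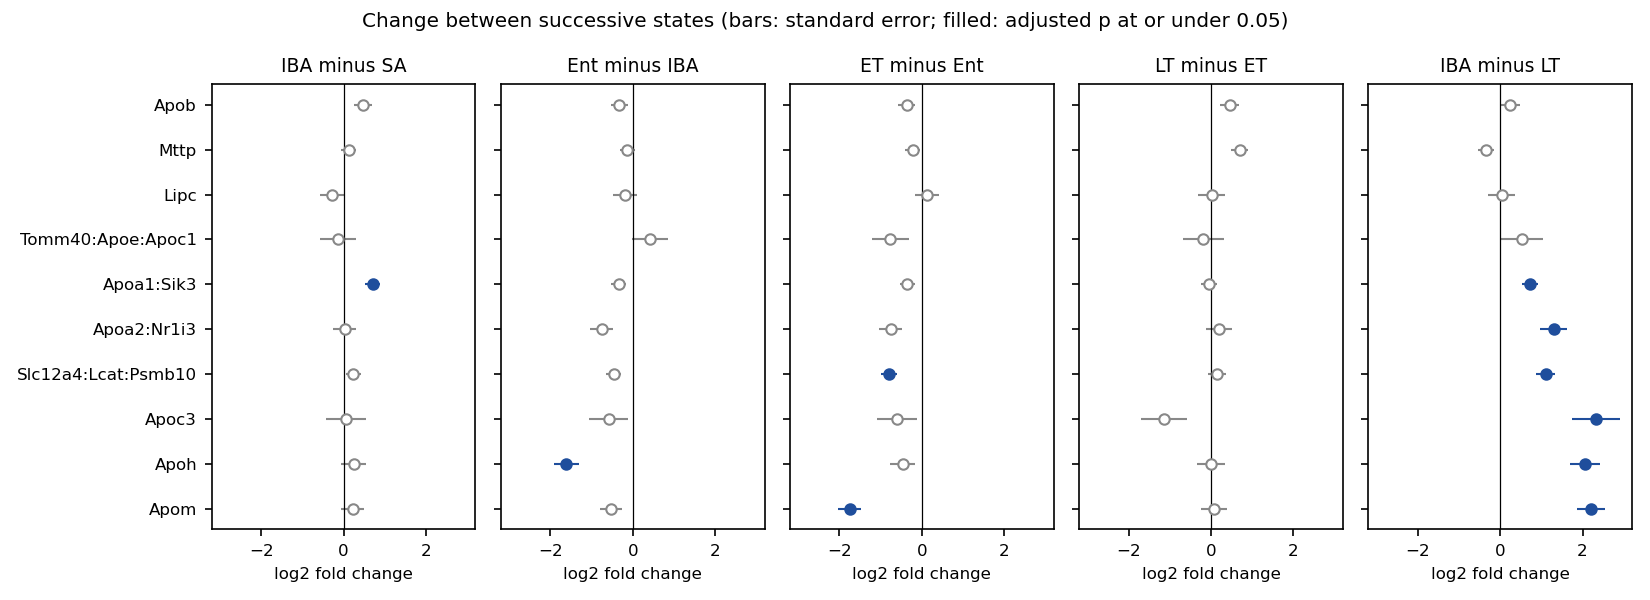
Log2 fold change (x axis) of each unit (y axis) between successive states of the cycle, from 1 fit of all 14 libraries; bars are standard errors, and filled points have an adjusted p at or under 0.05 by edgeR. Apoh was called from IBA to Ent, Apom and Slc12a4:Lcat:Psmb10 from Ent to ET, no unit from ET to LT, and 6 units from LT to IBA.

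Across the 5 states together, 3 of the 10 units were called at an adjusted p of 0.001, against 25.5% of all units. They were Apom (adjusted p = 7.9e-05 by edgeR), Apoh (0.00014) and Slc12a4:Lcat:Psmb10 (0.00061), and at a threshold of 0.05 they were 6, against 62.0% of all units. DESeq2 also called 6 at 0.001, against 50.0% of all units. Between LT and IBA, the step in which the animal rewarms, 6 of the 10 units were called higher in IBA and none lower, against 25.0% of all units higher and 24.8% lower. The 6 were Apoc3, Apom, Apoh, Apoa2:Nr1i3, Slc12a4:Lcat:Psmb10 and Apoa1:Sik3, in falling order of fold change. Apom was 4.62-fold higher (adjusted p = 0.00022 by edgeR), Apoh 4.19-fold (0.00058), Apoa2:Nr1i3 2.46-fold (0.00558) and Slc12a4:Lcat:Psmb10 2.15-fold (0.00142). The median log2 fold change of the 10 units was 0.92, beside 0.05 over all units. LT rests on 2 libraries, and without LT replicate 3 the calls of Apoc3 (adjusted p = 0.0616 by edgeR), Apoa2:Nr1i3 (0.0512) and Apoa1:Sik3 (0.114) were lost, which left 3.

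The same 6 units were called lower in the cold libraries than in the warm ones and none was called higher, where 33.7% of all units were called lower and 30.8% higher. The largest fall was that of Apom, from 51.3 CPM ± 10.5 (SD, n = 6) to 11.5 CPM ± 2.73 (SD, n = 5), which is 4.40-fold. Apoh fell 3.86-fold, from 559 CPM ± 116 (SD, n = 6) to 144 CPM ± 41.7 (SD, n = 5), and Apoc3 fell 3.31-fold. Slc12a4:Lcat:Psmb10 fell 2.08-fold. Apoa1:Sik3 fell only 1.28-fold, its warm and cold libraries overlapped, and this call (adjusted p = 0.0335 by edgeR) was lost in 8 of 22 alternatives. For 4 of the 10 units all 5 cold libraries lay below all 6 warm ones, as they did for 19.5% of all units. The median log2 fold change was -0.78 over the 10 units and -0.04 over all units. The IBA and LT libraries were used both here and in the comparison of LT with IBA, so the tests are not independent of each other.

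Between ET and LT no unit of the set was called, as were 0.269% of all units (17 units, against 116 with DESeq2). At an unadjusted p under 0.05, 1 of the 10 units, Mttp, and 550 of all units differed. DESeq2 called none of the 10 units either.

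The called units differed in how much of their fall was already present in Ent. As a share of the log2 fall from IBA to LT, the fall from IBA to Ent was 77.9% for Apoh, 57.6% for Apoa2:Nr1i3, 46.4% for Apoa1:Sik3, 42.1% for Slc12a4:Lcat:Psmb10, 25.2% for Apoc3 and 24.0% for Apom. These shares were not tested against each other, and they rest on Ent animals of different seasons. The season was then added to the fit as a term that set the third season against the other seasons pooled. Only SA and Ent, which have animals on both sides, inform this term. With it, the log2 fold change of Apoh from IBA to Ent was -2.16 ± 0.30 (SE, adjusted p = 0.0071 by edgeR). Apoa2:Nr1i3 was then called in the same step as well, at -1.33 ± 0.23 (SE, adjusted p = 0.011 by edgeR), against -0.75 (adjusted p = 0.0853) without the term. From LT to IBA the same 6 units were called with the season term, and the log2 fold changes were larger for each, for example 3.35 ± 0.64 (SE) for Apoc3 and 2.82 ± 0.37 (SE) for Apoh. The adjusted p by edgeR nevertheless rose for Apom (0.00022 to 0.0016), Slc12a4:Lcat:Psmb10 (0.0014 to 0.0084) and Apoa1:Sik3 (0.0098 to 0.034). It fell for Apoa2:Nr1i3, Apoc3 and Apoh. Within the first season alone, Apom had 37.2 and 48.8 CPM in Ent and 12.6 and 11.3 CPM in LT, and Apoh had 206 and 258 CPM in Ent and 192 and 97.7 CPM in LT.

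Over the 14 libraries, where the difference between warm and cold states raises the values for the units called, Pearson's r of log2 CPM was 0.95 between Apoa2:Nr1i3 and Apoh, 0.91 between Apoa2:Nr1i3 and Apom, and 0.91 between Apom and Slc12a4:Lcat:Psmb10. After the mean of each state was subtracted, r over all pairs of the 6 units called ran from -0.39 (Apoc3 and Slc12a4:Lcat:Psmb10) to 0.87 (Apoa2:Nr1i3 and Apoh). It was 0.63 to 0.87 between Apoh and each of Apoa1:Sik3, Apoa2:Nr1i3, Apoc3 and Apom, whereas Slc12a4:Lcat:Psmb10 had no r above 0.33 with the other 5. Tomm40:Apoe:Apoc1, although not called, had r = 0.79 with Apoa2:Nr1i3 and 0.73 with Apom on this within-state scale. These are descriptions over 14 points that share library and depth. Among the SA animals replicate 1 was the highest in 5 units of the set, against 32.7% of all units. These were Mttp, Apoa2:Nr1i3, Apoc3, Tomm40:Apoe:Apoc1 and Apoh. Replicate 2 was the lowest in 7, namely these 5, Apob and Apom, against 38.2% of all units. In the other 3, Apoa1:Sik3, Slc12a4:Lcat:Psmb10 and Lipc, replicate 2 was instead the highest, against 39.2%. Replicate 1 came from the first season and replicates 2 and 3 from the third. The part of season in the order of the SA libraries was not tested.

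Apob and Mttp, whose products act on the same particle, had r = 0.54 over the 14 libraries. The single-gene units most like Apob among 4704 were Socs6 (r = 0.80), Lrrc8d (0.78) and Plscr4 (0.78), and Mttp held rank 308. The units most like Mttp were Aldh1a1 (0.82), Fam114a2 (0.82) and the unannotated G2358 (0.80), and Apob held rank 73. Mttp had r between -0.22 and 0.18 with the other 8 units of the set.

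Units beside the lipoprotein genes on the same strand were examined within 20 kb. Nectin2 ended 1.76 kb before Tomm40:Apoe:Apoc1 and had 65.3 CPM in SA, 50.5 in IBA, 55.7 in Ent, 71.0 in ET and 43.1 in LT, with no call from LT to IBA (adjusted p = 0.501 by edgeR). The unit that follows 4.77 kb after it holds Apoc4, Apoc2, which encodes the activator of lipoprotein lipase, and Clptm1. This unit of Apoc2 had 306 CPM ± 66.8 (SD, n = 3) in SA, 546 ± 150 in IBA, 579 ± 195 in Ent, 283 ± 22.3 in ET and 286 ± 12.3 (n = 2) in LT. It fell from Ent to ET by a log2 fold change of -1.03 ± 0.26 (SE, adjusted p = 0.0101 by edgeR) and was higher in IBA than in LT by 0.93 ± 0.29 (SE, adjusted p = 0.0181). Prrc2a, 9.70 kb upstream of Apom, had 93.58 CPM in SA, 66.7 in IBA, 107 in Ent, 131 in ET and 93.55 in LT. It was called higher in the cold libraries, at a log2 fold change of 0.49 ± 0.11 (SE, adjusted p = 0.00175 by edgeR). Its LT mean was nevertheless near that of SA and below that of Ent.

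The other genes of lipoprotein metabolism were counted by list, each unit once and without the 10 units above. The call counts for LT to IBA are read against the 25.0% of all units higher in IBA and the 24.8% lower. Of 15 other apolipoprotein genes 9 had a unit, which gave 7 units, and 3 were called higher in IBA, 1 lower and 3 in neither direction, with a median log2 fold change of 0.34. The unit of Apoa5, an activator of triglyceride lipolysis that shares its unit with Bud13 and Zpr1, had 278 CPM in SA, 260 in IBA, 155 in Ent, 111 in ET and 65.3 in LT. Its log2 fold change from LT to IBA was 1.99 ± 0.39 (SE, adjusted p = 0.0012 by edgeR). The unit that holds Apof, an inhibitor of cholesteryl ester transfer, and Stat2 was higher in IBA by 1.78 ± 0.25 (SE, adjusted p = 0.00013). Apool, a mitochondrial inner membrane organising protein in spite of its name, was higher in the cold (50.4 CPM in SA and 116 CPM in LT, adjusted p = 0.00118 from LT to IBA by edgeR).

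The genes of VLDL assembly and export went both ways. Of 20 genes 15 had a unit, of which 5 were called higher in IBA than in LT, 4 lower and 6 in neither direction, with a median of -0.10. Higher in IBA were the unit of Tm6sf2, a lipid-loading factor of the secretory pathway, by a log2 fold change of 1.76 ± 0.38 (SE), and Sar1b, the GTPase of the coat vesicles that carry large lipoproteins, by 1.12 ± 0.18 (SE, adjusted p = 0.00027 by edgeR). Sar1b had 305 CPM in SA, 292 in IBA, 196 in Ent, 153 in ET and 135 in LT. Lower in IBA were the unit of Tmem41b, a scramblase of the endoplasmic reticulum, by -1.995 ± 0.21 (SE, adjusted p = 2.3e-05 by edgeR), and the unit of Lpcat3, which remodels membrane phospholipids, by -1.32 ± 0.18 (SE, adjusted p = 0.00012). The Lpcat3 unit also holds Phb2, a small nucleolar RNA and the unannotated G25619, and the Tm6sf2 unit also holds Hapln4. The Tmem41b unit had 85.0 CPM in IBA, 168 in Ent, 343 in ET and 339 in LT.

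**Figure D3:**
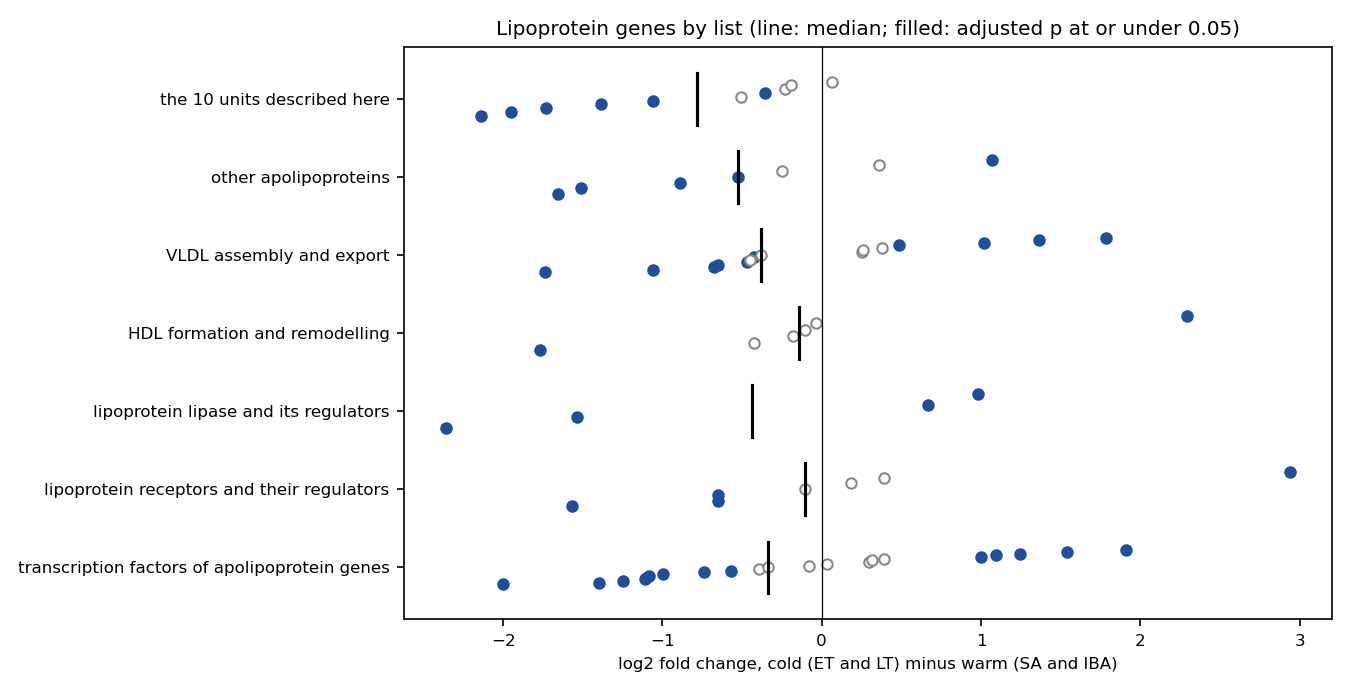
Log2 fold change, cold minus warm libraries (x axis), of the 10 units and of the units of each list (rows); filled points have an adjusted p at or under 0.05 by edgeR and vertical lines are medians. The called points of the 10 units all lay below 0, whereas each other list shown had called points on both sides. The hepatocyte markers, not shown, were also one-sided, with 8 of 9 units called lower, none higher and a median of -1.51.

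Among 6 units of HDL formation and remodelling 1 was called in each direction. Lipg, the endothelial lipase gene, which shares its unit with a small nucleolar RNA, was higher in IBA than in LT (log2 fold change 1.24 ± 0.40, SE, adjusted p = 0.0213 by edgeR) and had 504 CPM in SA against 143 CPM in IBA. Abcg1, a cholesterol exporter, was lower in IBA than in LT by -3.02 ± 0.52 (SE, adjusted p = 0.0005), with 69.5 CPM in IBA, 141 in Ent, 335 in ET and 565 in LT. Abca1, the exporter that starts HDL formation, had 1353 CPM in IBA and 1269 CPM in LT and was not called. Among the 4 units of lipoprotein lipase and its regulators, Lpl (-1.46 ± 0.36, SE, adjusted p = 0.0053) and the merged unit of Angptl4 (-1.13 ± 0.13, SE, adjusted p = 4.5e-05) were lower in IBA. The Angptl4 unit also holds Hnrnpm, March2, Rab11b and the unannotated G19311. Lpl encodes the lipase itself, and its unit had 21.5 CPM in IBA, 46.8 in Ent, 30.3 in ET and 59.1 in LT.

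Of 7 units of lipoprotein receptors and their regulators 3 were called higher in IBA than in LT and 1 lower. The unit of Lsr, a receptor for triglyceride-rich particles, also holds the iron hormone gene Hamp and the gene Usf2, and it was higher in IBA by 1.92 ± 0.36 (SE, adjusted p = 0.00083 by edgeR). Mylip, whose product marks lipoprotein receptors for degradation, was lower in IBA by -3.25 ± 0.47 (SE, adjusted p = 0.00016), at 27.1 CPM in IBA, 78.5 in Ent, 189 in ET and 257 in LT.

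Of 21 units of transcription factors known to act on apolipoprotein genes, 9 were called higher in IBA than in LT, 5 lower and 7 in neither direction, with a median log2 fold change of 0.43. The unit of Foxa3 was higher in IBA by 2.51 ± 0.32 (SE, adjusted p = 6.1e-05 by edgeR) and Onecut1 by 2.15 ± 0.35 (SE, adjusted p = 0.00034), both being factors of liver-specific transcription. Nr1d1, the clock repressor REV-ERB alpha, was lower in IBA by -2.44 ± 0.61 (SE, adjusted p = 0.0055), and Srebf1, a factor of lipid synthesis genes, by -1.77 ± 0.50 (SE, adjusted p = 0.0113). Hnf4a, a main activator of hepatic apolipoprotein genes that was singled out after its values were seen, had 922 CPM in SA, 819 in IBA, 797 in Ent, 423 in ET and 387 in LT. It was higher in IBA than in LT by 1.08 ± 0.19 (SE, adjusted p = 0.00063 by edgeR).

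**Figure D4:**
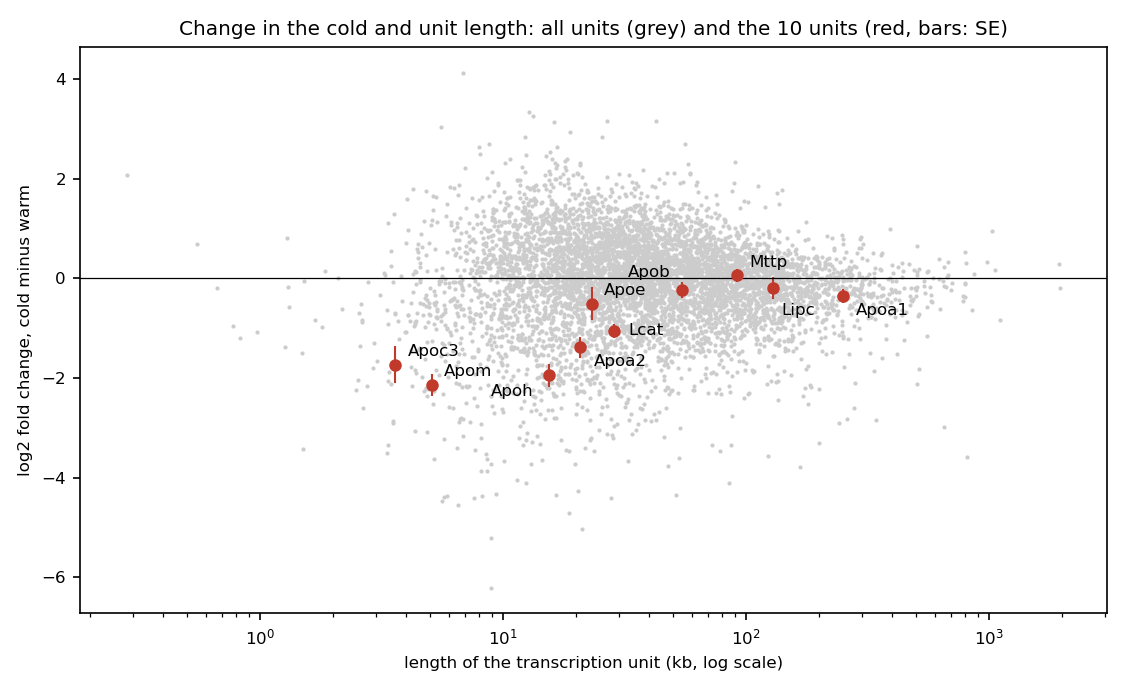
Log2 fold change, cold minus warm libraries (y axis), against the length of the transcription unit in kb (x axis, log scale), for all 6324 units in grey and the 10 units in red with standard errors. The units of the set under 20 kb lay between -1.73 and -2.14, and those over 50 kb between -0.35 and 0.06.

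The change in the cold was ordered by unit length within the set. Apoc3, Apom and Apoh, at 3.59, 5.10 and 15.5 kb, had log2 fold changes, cold minus warm, of -1.73, -2.14 and -1.95. The 3 units of 20.7 to 28.6 kb had values of -1.39 (Apoa2:Nr1i3), -0.50 (Tomm40:Apoe:Apoc1) and -1.06 (Slc12a4:Lcat:Psmb10), and the 4 units over 50 kb had values of -0.23 (Apob), 0.06 (Mttp), -0.19 (Lipc) and -0.35 (Apoa1:Sik3). Spearman's rho of length and log2 fold change was 0.87 over the 10 units and -0.06 over all 6324, which is a description across units and not across replicates. Over all units, the 123 of up to 5 kb changed by -0.72 in the median (log2) and the 405 of 5 to 10 kb by -0.31. The 1144 units of 10 to 20 kb, Apoh among them, had a median of 0.07, and the 2214 of 20 to 50 kb, those of Apoa2, Apoe and Lcat among them, had 0.05. The longer units had medians of -0.02 in the 1343 units of 50 to 100 kb (Apob and Mttp), -0.17 in the 747 of 100 to 200 kb (Lipc) and -0.22 in the 348 longer ones (Apoa1:Sik3). The part of unit length in the values of the set was not tested.

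Together the 10 units took 0.801% of all counts in the warm libraries and 0.651% in the cold ones. The share ran from 0.67% to 1.01% over the warm libraries and from 0.508% to 0.806% over the cold, so that the ranges overlapped. Apob alone took 0.367% of counts in warm livers and 0.335% in cold livers.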

How the data were processed

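The authors trimmed GRO-seq reads with cutadapt, aligned them with BWA to the HiC_Itri_2 assembly, kept uniquely aligned reads and counted them with featureCounts. Features were gene bodies without the first 500 nucleotides, whose 3′ ends the authors extended where the nascent signal ran past the annotated end, and overlapping genes were merged. The deposited values are raw counts of 6324 units in 14 libraries, 4705 units of 1 gene and 1619 merged. Tool versions are not given in the sources used here.

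Counts were fitted in 1 model of the 5 states with edgeR 4.0.16 (TMM, quasi-likelihood, no filter, since filterByExpr removed 0 units), with Benjamini-Hochberg adjustment over the whole table. A unit was called at an adjusted p of 0.001 among the states and of 0.05 in a pair of states or cold against warm. SE is that of the log2 fold change, and 95% intervals come from the same test. For log2 CPM a prior count of 2 was used. Library depth of 3713883 to 8884763 counts adds the most counting error to units with few reads. The script was tested on simulated data. Alternatives were DESeq2 1.42.0, limma 3.58.1, other scalings, filters, thresholds, a replicate block and leaving out each library. A further alternative was the collection season (from the study's animal records), coded as the third against the others.

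The 10 genes, the lists and the markers were chosen with earlier results of these data known. Named besides the 10 were same-strand units within 20 kb, up to 2 called units in each direction from LT to IBA in each list by size, and the 3 single-gene units most like Apob and Mttp. All 10 symbols are in the RefSeq gene table of another assembly (mIctTri1.hap1). No genome of the files' assembly was used here, so no sequences are shown. LT replicate 2 had no counts and was not used. Some genes of the lists are not reported here by name.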

Additional observations from a re-analysis of the deposited data

How the results depend on the processing

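Over the 6 comparisons, 16 log2 fold changes of the 10 units were called. In 378 alternative values none changed direction, while 18 lost the call. In many of the 378 the direction could hardly have changed. Leaving out a library of a state outside the comparison, for example, left the log2 fold change nearly the same. Of those 18, 16 belong to Apoa1:Sik3, and the other two, Apoa2:Nr1i3 and Apoc3 from LT to IBA, were lost without LT replicate 3, where the lone LT library is assumed to vary like the other groups. At a threshold of 0.05 the calls of Apoh, Apom and Slc12a4:Lcat:Psmb10 between states and cold against warm were lost in no other fit. Their calls among the 5 states at 0.001 were less stable, since total counts and the replicate block gave 2 calls in place of 3. Leaving out 1 library gave 2 to 4, and in most of these fits 2. DESeq2 called 6 units among the 5 states against 3, and a threshold of 0.05 also gave 6, where 50.0% and 62.0% of all units were called. With single-gene units only, the merged units drop out by construction, which gave 0 calls from SA to IBA, 1 from Ent to ET, 3 from LT to IBA and 3 cold against warm. A threshold of 0.001 in pairs left 2 calls from LT to IBA and 0 in each of the earlier steps. The fit of the compared groups only gave 0 calls from SA to IBA, and the season covariate gave 2 from IBA to Ent. Leaving out 1 library at a time gave 0 to 1 calls from SA to IBA, 1 to 2 from IBA to Ent (2 without SA replicate 2), 2 to 4 from Ent to ET (4 without ET replicate 1) and 3 to 6 from LT to IBA (3 without LT replicate 3). The cause of these shifts was not tested.

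Among the log2 fold changes that were not called, 15 changed sign in at least 1 alternative, and not only those near 0. Tomm40:Apoe:Apoc1 from IBA to Ent was 0.42 in the main fit and -0.25 with the season covariate (adjusted p = 0.780 by edgeR). Lipc from LT to IBA was -0.064 with total counts, -0.091 with the replicate block, -0.00035 with single-gene units only and -0.00101 with the compared groups only, and -0.078 to 0.15 without 1 library. On the same basis Apob from LT to IBA ran from -0.00019 (without LT replicate 3) to 0.52, Mttp cold against warm from -0.053 to 0.16, and Lipc cold against warm from -0.34 to 0.028. With the replicate block 2 units were called among the states, 3 from Ent to ET and 6 from LT to IBA. Replicate numbers did not pair the animals, since each library came from an animal of its own. Deviations from the state means correlated from -0.26 to 0.23 between libraries of the same number and from -0.34 to 0.38 between those of other numbers. Over all units DESeq2 called 686 units from SA to IBA against 330 with edgeR. From LT to IBA the SE of the log2 fold change was largest for Apoc3 (0.59) and Tomm40:Apoe:Apoc1 (0.51). That of Apom, the least deeply counted unit, was 0.34, beside 0.33 for Lipc. LT, with 2 libraries, limits every comparison it enters.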
